A study of Mus musculus with 6 samples.

Results

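The nuclear-encoded respiratory chain genes are the genes of the cell nucleus whose proteins are imported into mitochondria and built into the 5 complexes of oxidative phosphorylation. They were chosen by symbol, as the subunits of complexes I to V are named: Nduf followed by a, b, c, s or v and a digit, Sdha to Sdhd, names starting Uqcr or Atp5, and Cox followed by a digit from 4 to 8. Assembly factors named in the manner of Ndufaf4 fall outside these forms. The rule matched 83 of the 17526 genes in the table. A count of 10 or more in at least 3 libraries kept 79 of them: 37 of complex I, 4 of complex II, 8 of complex III, 13 of complex IV and 17 of complex V. All 79 were among the 12943 genes tested.

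RNA came from small intestinal crypts of mice, the epithelial pockets that hold stem cells, dividing progenitors and Paneth cells. Mice with a floxed Fpr2 gene (Fpr2f/f, labelled WT) gave the 3 floxed control libraries. Fpr2VKO mice, which by the study's title lack Fpr2 in the intestinal epithelium, gave the 3 knockout libraries. Fpr2 encodes formyl peptide receptor 2, which senses formylated peptides such as those that bacteria and mitochondria release. The labels do not name the promoter that drove the deletion, nor the age or strain of the mice. The targeted gene itself was not analysed here, which leaves the genotype labels unchecked on it. Whether libraries within a group are from different animals is not in the labels, and the p-values therefore reflect differences among these libraries that may be technical.

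Complexes I and II take electrons from NADH and from succinate, and ubiquinone carries them to complex III. Cytochrome c then carries them to complex IV, which passes them to oxygen. Complexes I, III and IV pump protons across the inner mitochondrial membrane, and complex V, the ATP synthase, uses the returning protons to make ATP. In the crypt, stem cells and enterocytes depend on this pathway to different degrees, and Paneth cells are more glycolytic.

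Crypt markers were present in every library, among them Lgr5 of stem cells (20.3 to 97.7 CPM, counts scaled to library size by TMM), Olfm4 (1046 to 1959 CPM), Mki67 of dividing cells (173 to 469 CPM) and Lyz1 of Paneth cells (8623 to 56446 CPM). The enterocyte marker Fabp2 was present too (237 to 1174 CPM). Libraries held 11108511 to 16859902 estimated counts. Markers differed between the groups. Of 13 Paneth markers 0 had a positive log2 fold change (knockout over floxed control, median -1.72). Goblet, enteroendocrine and tuft markers had negative medians too (-0.72, -0.76 and -1.13). So did stem markers (0 of 8 positive, median -0.33) and absorptive enterocyte markers (1 of 14 positive, median -0.26). All 10 proliferation markers were positive (median 0.34). At an adjusted p under 0.05 edgeR called 0 of the 13 Paneth markers and DESeq2 called 13, against 0.0155% and 2.69% of all genes. Libraries also stood apart in ways that follow the genotypes only in part or not at all. The 9 T cell and intraepithelial lymphocyte markers summed to 237 and 186 CPM in floxed controls 1 and 3 and to 54.6 to 68.5 CPM in the other 4 libraries, with none of the 9 at 0. Of these 9 markers 0 had a positive log2 fold change (median -1.36), so they differed between the groups too. B and plasma cell markers and erythroid markers also had negative medians (-1.85 and -1.94). The 12 clock genes had a median level of -0.78 in floxed control 2 and in knockout 1, and of 0.13 to 0.42 in the others, on a log2 scale centred on the 6 libraries. In tissue RNA, fewer cells of a type and less RNA per cell cannot be told apart.

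Promoters are shown first, because the nuclear respiratory factors are known to bind many of these genes. Whether those factors have a part in the members' levels across libraries was not tested. RefSeq sequences for GRCm38.p6, from 250 bases before to 50 after each start, were found for 66 of the 79 members in 71 entries. Among those without an entry were Atp5a1, Atp5mpl, Cox4i1, Cox6c, Ndufa2, Ndufb4c, Ndufb9, Ndufs1, Sdhc, Uqcrb, Uqcrc2 and Uqcrq. The core letters of nuclear respiratory factor 1 (NRF1), GCGCATGCG, were searched on both strands and stood in 6 of the 71 member promoters (8.45%), against 2.73% of the promoters of all genes tested and 1.45% of all promoters. With the middle base free (GCGCNTGCG, which includes the first form) there were 18 (25.4%), against 10.2% and 5.19%. The core letters of the ETS family (CCGGAAG), to which the GABP factor belongs, stood in 12 (16.9%), against 12.9% and 6.91%. The YY1 letters (AAGATGGCG) and the half-site of the estrogen-related receptors (TCAAGGTCA) each stood in 1 (1.41%), against 1.11% and 0.279% of promoters of genes tested. The GC content was 56.5% in member promoters and 59.4% in those of genes tested. These matches describe letters and do not show binding.

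The sequences upstream of 5 members show the range, from several matches to none. They were picked after the matches were seen. Each ends at the base before an annotated start, is written 5′ to 3′ on the gene's strand, which is the minus strand for all 5, and has the matched letters in capitals. Sdha, the catalytic subunit of complex II, is at chr13:74350241-74350360 and has 3 matches to the form with a free base. Cox6a1, the broadly expressed form of a complex IV subunit, is at chr5:115348959-115349138 and has the NRF1 core, the freer form and the ETS letters.
Sdha: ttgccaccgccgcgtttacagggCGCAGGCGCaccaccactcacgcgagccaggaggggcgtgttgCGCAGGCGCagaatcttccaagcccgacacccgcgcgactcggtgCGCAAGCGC
Cox6a1: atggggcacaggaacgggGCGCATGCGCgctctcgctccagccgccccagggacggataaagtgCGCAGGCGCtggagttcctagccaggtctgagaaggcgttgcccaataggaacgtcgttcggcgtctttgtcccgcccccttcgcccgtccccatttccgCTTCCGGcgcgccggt

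In Cox6a1 and in Atp5k, a complex V subunit of the membrane part at chr5:108434400-108434519, the NRF1 core matched on both strands, 1 base apart. Ndufa8, a complex I subunit, has the core next to its start at chr2:36049339-36049458 and the freer form upstream of it. Atp5j, a subunit of the stalk of complex V, has 2 promoter entries. The stretch of the upstream entry, at chr16:84835626-84835745, lies within the span RefSeq gives the gene and holds none of the letters, and that of the downstream entry, at chr16:84834977-84835096, holds the YY1 and ETS letters.
Atp5k: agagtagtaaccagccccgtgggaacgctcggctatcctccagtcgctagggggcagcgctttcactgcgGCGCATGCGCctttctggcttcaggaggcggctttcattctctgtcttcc
Ndufa8: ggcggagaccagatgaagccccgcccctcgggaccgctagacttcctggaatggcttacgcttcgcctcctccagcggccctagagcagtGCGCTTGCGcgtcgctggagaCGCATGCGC
Atp5j, upstream entry: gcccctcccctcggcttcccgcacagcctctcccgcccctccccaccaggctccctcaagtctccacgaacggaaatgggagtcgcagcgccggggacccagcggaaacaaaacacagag
Atp5j, downstream entry: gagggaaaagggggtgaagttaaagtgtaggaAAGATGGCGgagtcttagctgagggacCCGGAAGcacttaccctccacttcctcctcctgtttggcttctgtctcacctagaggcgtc

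No respiratory chain member differed between knockout and floxed control crypts at an adjusted p under 0.05. By edgeR's quasi-likelihood test with Benjamini-Hochberg adjustment 0 of 79 were called, where 2 of all genes tested were (0.0155%). DESeq2 called 0 members too, against 2.69% of all genes with an adjusted p. At an unadjusted edgeR p under 0.05 there was 1 member, Ndufs1, against 13.7% of all genes. The groups did not overlap in 2 members, Ndufs1 and Sdha, with the knockouts higher in each, while 6.99% of all genes did not overlap with the knockouts higher and 10.3% with the knockouts lower. With 0.0155% of all genes called by edgeR, 0 of 79 says little about the members. At an unadjusted edgeR p under 0.05 the share of members was 1.27%. The median standard error was 0.26 for members against 0.21 for all genes tested, and its part in these shares was not tested.

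The members' log2 fold changes were small and mostly positive. Their median was 0.068 (knockout over floxed control), with 57 positive and 22 negative (72.2% positive), beside a median of -0.013 and 48.1% positive over all genes tested. The medians by complex were 0.10 for complex I, -0.042 for complex II, 0.017 for complex III, 0.12 for complex IV and 0.043 for complex V. Single members ran from -0.57 for Ndufb4c to 0.42 for Ndufa5. The median standard error of a member was 0.26, larger than most of these values. Leaving out floxed control 1 turned the members' median to -0.12, and leaving out knockout 3 turned it to -0.023. Leaving out floxed control 2 raised it to 0.36, with 77 of 79 positive and 15 members (19.0%) at an unadjusted edgeR p under 0.05, a smaller share than the 24.3% of all genes under that setting. Without floxed controls 1 and 3, the libraries with more lymphocyte markers, it was -0.31, and without floxed control 2 and knockout 1, which the clock genes set apart, it was 0.33. In those of these settings that kept more than 1 control, 0 members were called. Few genes were called at all without floxed control 1 (11 of 13061 tested), so the 0 says little there.

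**Figure D1:**
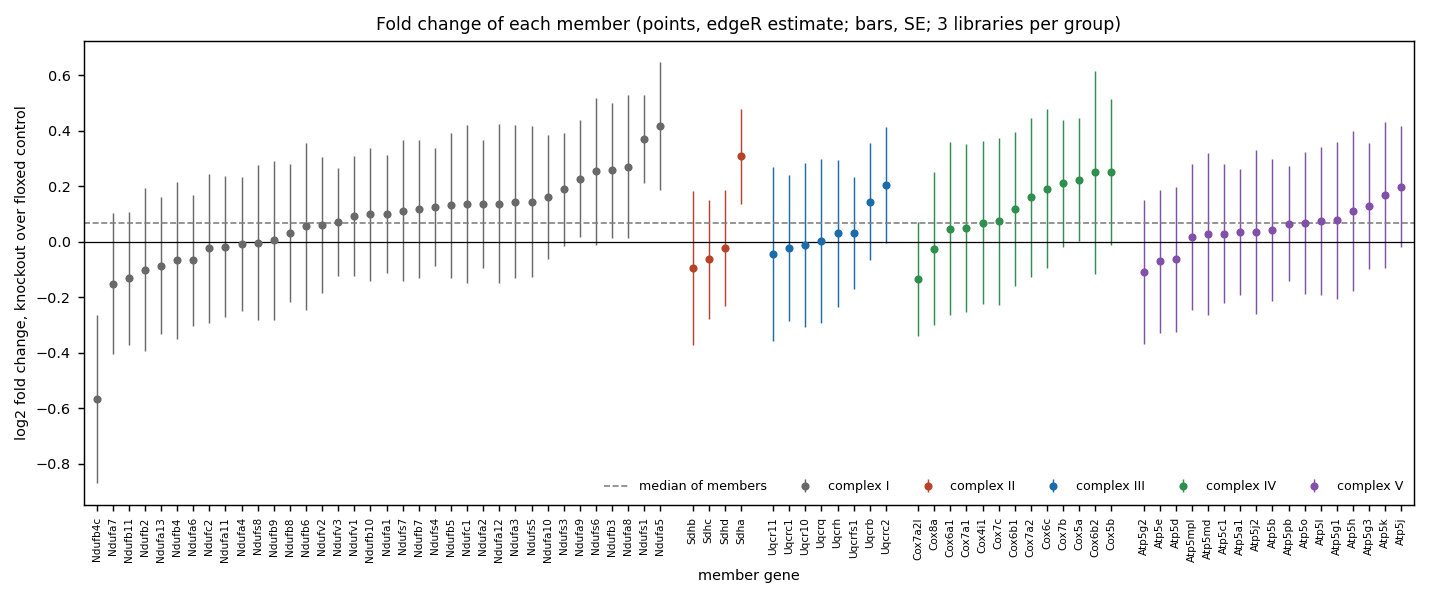
The log2 fold change of 78 of the 79 members (vertical axis, knockout over floxed control; points are edgeR estimates, bars are 1 SE, 3 libraries per group), ordered within each complex. Most bars cross 0, and the dashed line marks the members' median of 0.068.

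The members spread more widely among the floxed controls than among the knockouts. Floxed control 1 was the lowest library for 75 of 79 members (94.9%, against 25.4% of all genes), and floxed control 2 was the highest for 65 (82.3%, against 21.4%). Both held for 64 members (81.0%, against 13.8%). The floxed controls lay on either side of all 3 knockouts in 65 members (82.3%, against 28.2%). The members' median level, on the centred log2 scale, was -0.61 in floxed control 1, 0.45 in floxed control 2 and -0.0053 in floxed control 3, against 0.11, -0.16 and 0.24 in the 3 knockouts. The level in floxed control 2 was a median of 2.09 times that in floxed control 1, with a range of 0.780 for Cox6b2 to 2.81 for Uqcr11. The median coefficient of variation of a member was 35.5% among floxed controls against 15.0% among knockouts, and over all genes tested it was 19.5% and 12.9%. These shares are descriptions of 79 genes measured in the same 6 libraries.

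**Figure D2:**
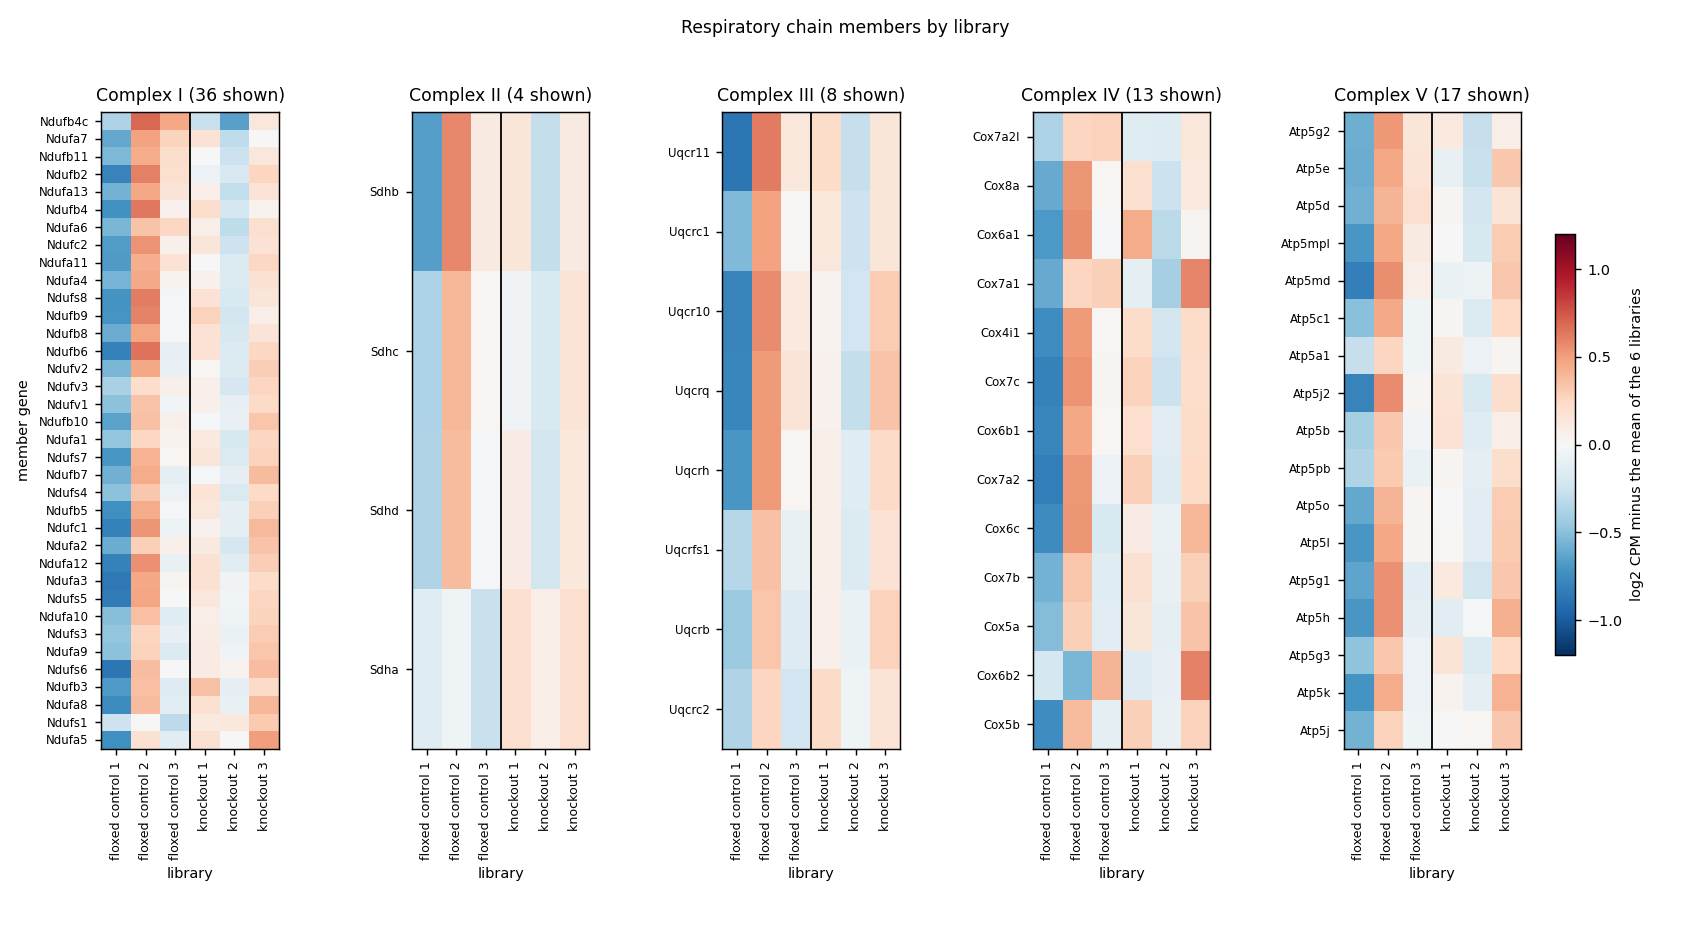
Level of 78 of the 79 members (rows, by complex) in each library (columns; the line divides floxed controls from knockouts), as log2 CPM minus the mean of the 6 libraries (colour). The first column is blue and the second red in nearly every row; Ndufs1, Sdha, Cox6b2 and Ndufb4c are the 4 members for which floxed control 1 was not the lowest library.

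Levels in floxed controls 1 and 2 also ran with transcript length across all genes. The members' transcripts are short, with a median of 756.5 bases in GENCODE M21 against 2905.5 for all genes tested. Among all 504 genes of 700 to 1000 bases the median centred log2 level was -0.43 in floxed control 1 and 0.31 in floxed control 2, and among the 2269 genes over 5000 bases it was 0.28 and -0.094. In floxed controls 1 and 2 members lay further out than all genes of their class: the 17 members of 700 to 1000 bases had -0.69 and 0.41, and the 10 members of 1500 to 2000 bases had -0.49 and 0.33, where all 1527 genes of that class had -0.18 and 0.13. With each library's trend on length removed, the members' median log2 fold change was 0.087 and 0 members were called by edgeR. Lymphocyte markers were high in floxed control 3 as well as in floxed control 1, and clock genes low in knockout 1 as well as in floxed control 2. The members' median levels in floxed control 3 and knockout 1 were -0.0053 and 0.11. The part of length, lymphocyte and clock markers in the spread was not tested.

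**Figure D3:**
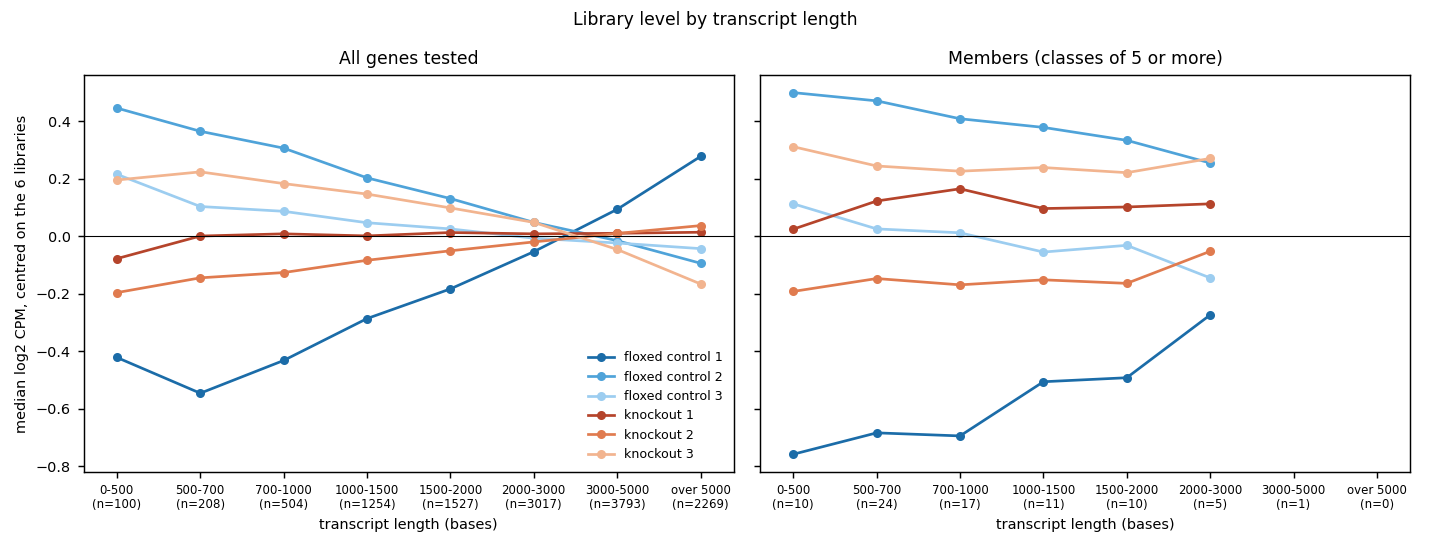
Median level of each library (vertical axis, log2 CPM centred on the 6 libraries) by class of transcript length in bases (horizontal axis, number of genes in brackets), for all genes tested (left) and for members in classes of 5 or more (right). Over all genes floxed control 1 climbs from the class of 500 to 700 bases to the longest, and the members' line for it lies below that of all genes in each class shown.

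Complex I, the largest of the complexes, feeds electrons from NADH into the chain. Ndufs1, its largest iron-sulfur subunit (gene 227197, chr1:63143592-63176822), had levels of 105, 124 and 100.2 CPM in the floxed controls, in replicate order here and below, against 135, 136 and 155 CPM in the knockouts. All 3 knockouts lay above all 3 floxed controls. The log2 fold change was 0.37 ± 0.16 (SE), and by edgeR the adjusted p was 0.342 (unadjusted p = 0.0409). Without floxed controls 1 and 3 the value was 0.25 ± 0.20, and without floxed control 2 and knockout 1 it was 0.51 ± 0.17. Ndufa5, an accessory subunit (gene 68202, chr6:24518662-24527690), had the most positive fold change of any member. It stood at 33.4, 63.3 and 51.0 CPM in the floxed controls and at 63.1, 55.7 and 78.9 CPM in the knockouts, a log2 fold change of 0.42 ± 0.23 (edgeR adjusted p = 0.456). Floxed control 2 lay within the range of the knockouts, and without floxed controls 1 and 3 the value was 0.12 ± 0.22.

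In further core subunits of complex I floxed control 1 was again lowest. Ndufv1, which binds NADH and FMN, was at 129, 229 and 177 CPM in the floxed controls and 189, 169 and 213 CPM in the knockouts. Ndufs3, another core subunit, was at 92.3, 154 and 120.03 CPM against 137, 122 and 159 CPM. Floxed control 2 was the highest library for Ndufv1 and knockout 3 for Ndufs3. The groups overlapped in both, with log2 fold changes of 0.093 ± 0.22 and 0.19 ± 0.20. Ndufa4, first described with complex I and now placed in complex IV, was at 136, 275 and 207 CPM against 208, 179 and 228 CPM, with a log2 fold change of -0.0079 ± 0.24 that turned to 0.0085 with DESeq2 size factors. Its relative Ndufa4l2 had counts of 0 to 2 per library, below the threshold.

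Ndufb4c (gene 100041273, chr15:73809449-73809933), a copy of the accessory subunit gene Ndufb4, had the most negative fold change. Its levels were 6.29, 13.3 and 11.3 CPM in the floxed controls and 6.77, 5.15 and 9.01 CPM in the knockouts, with floxed control 1 inside the range of the knockouts (log2 -0.57 ± 0.30, edgeR adjusted p = 0.439). Without floxed controls 1 and 3 the value was -0.87 ± 0.31. Its counts were not whole numbers in any of the 6 libraries, as happens where reads are divided among similar copies, so its value is uncertain. As a share of the counts of Ndufb4, Ndufb4b and Ndufb4c together it was 12.2%, 10.2% and 12.6% in the floxed controls and 7.23%, 7.31% and 10.4% in the knockouts, ranges that overlap. Ndufb4 itself stood at 45.4, 117 and 78.0 CPM against 87.0, 65.1 and 77.5 CPM. Ndufb4b had a count of 5.97 in knockout 1 and 0 in the other libraries, and was not kept.

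Complex II is also the succinate dehydrogenase of the tricarboxylic acid cycle, and the only complex made wholly from nuclear genes. Sdha, its flavoprotein (gene 66945, chr13:74322255-74350240), was at 360.1, 383 and 329 CPM in the floxed controls and at 453, 421 and 454 CPM in the knockouts. The groups did not overlap, and the spread within each was small (357 ± 26.7 and 443 ± 18.7 CPM, SD, n = 3). The log2 fold change of 0.31 ± 0.17 did not pass the test (edgeR adjusted p = 0.460). It was 0.27 ± 0.22 without floxed controls 1 and 3, and 0.35 ± 0.20 without floxed control 2 and knockout 1. The other 3 subunits had small negative values. Sdhb, the iron-sulfur subunit, was at 148, 351 and 253 CPM against 259.8, 192 and 253 CPM (log2 -0.095 ± 0.28). Sdhc and Sdhd, the membrane anchors, had -0.063 ± 0.22 and -0.022 ± 0.21.

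**Figure D4:**
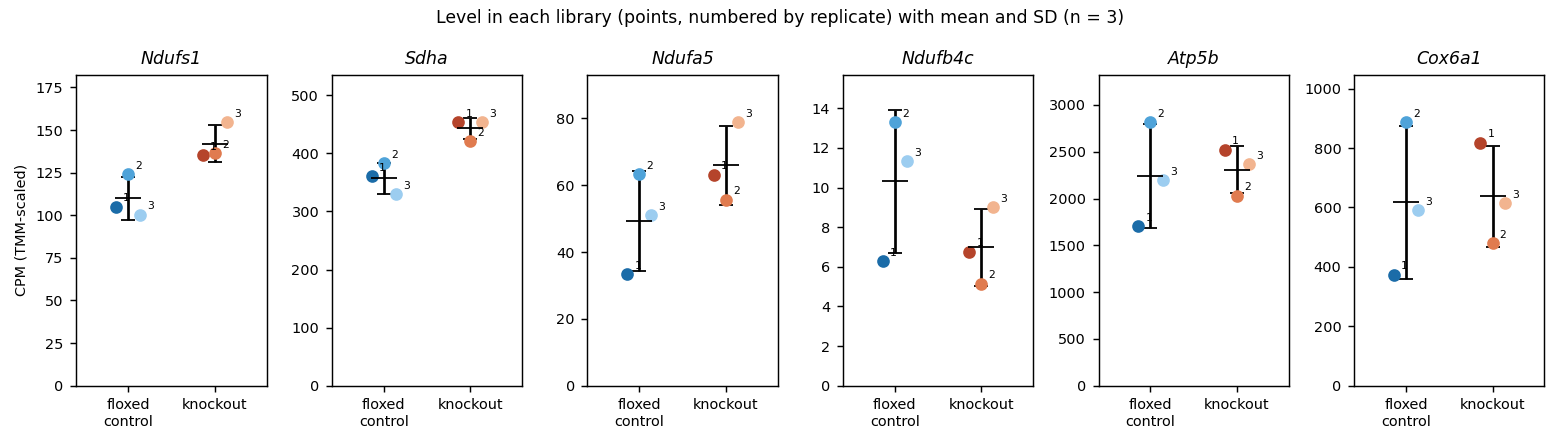
CPM (vertical axis, from 0) of 6 members in each library (points, numbered by replicate), with the group mean (horizontal mark) and SD (bars, n = 3). Ndufs1 and Sdha have knockout points above all floxed control points, whereas Atp5b and Cox6a1 have floxed controls 1 and 2 on either side of the knockouts.

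Complex III hands electrons from ubiquinol to cytochrome c. Its core protein Uqcrc1 stood at 412, 828 and 599 CPM in the floxed controls and at 655, 499.7 and 657 CPM in the knockouts, a log2 fold change of -0.022 ± 0.26. The Rieske iron-sulfur protein Uqcrfs1 was at 132, 212 and 157 CPM against 176, 149 and 188 CPM (log2 0.032 ± 0.20). Floxed control 1 was lowest and floxed control 2 highest in all 8 complex III members. The smallest p of the complex belonged to Uqcrc2, the other core protein, at 288, 443.7 and 316 CPM against 435, 358 and 415 CPM (log2 0.20 ± 0.21, edgeR adjusted p = 0.727). Uqcrb, a subunit near the ubiquinone site, had 0.15 ± 0.21.

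Complex IV, cytochrome c oxidase, has several subunits with alternative forms for different tissues. Cox4i1, the common form of subunit 4, was at 352, 842 and 594 CPM in the floxed controls and at 685, 506 and 685 CPM in the knockouts (log2 0.069 ± 0.29). The lung form Cox4i2 had counts of 0 to 2. Cox6a1 was at 373, 888 and 591 CPM against 818, 481 and 614 CPM, and Cox6a2, the form of heart and skeletal muscle, had counts of 0 to 9. The broadly expressed forms thus carried nearly all the counts of these subunits, in floxed controls and knockouts alike.

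Of the further forms, Cox6b1 was at 186 to 440.3 CPM over the 6 libraries and the testis form Cox6b2 at 1.77 to 4.09 CPM, with 26 to 73 counts per library. Cox7a2 was at 73.4 to 187 CPM, and Cox7a1, the form of heart and muscle, at 7.86 to 18.1 CPM. Cox7a1 and Cox6b2 were, with Ndufb4c, the members nearest above the count threshold, and the 4 symbols below it were Cox6a2, Cox4i2, Ndufa4l2 and Ndufb4b. Striated muscle markers summed to 4.51 to 6.21 CPM per library, most of it Acta1, while Ckm did not exceed 0.394 CPM. Cox7a2l, which takes part in joining complexes III and IV, was at 164, 253 and 256 CPM in the floxed controls and at 191, 191 and 232 CPM in the knockouts (log2 -0.13 ± 0.20). It was the only member with floxed control 3 as its highest library.

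Further complex IV members had positive values, with floxed control 1 lowest. Cox5a was at 149.6, 260.4 and 194 CPM against 236, 198 and 272 CPM (log2 0.22 ± 0.22), with knockout 3 highest. Cox5b and Cox7b, with floxed control 2 highest, had log2 fold changes of 0.25 ± 0.26 and 0.21 ± 0.23. These 3 had the smallest p-values of the complex, with edgeR adjusted p from 0.718 to 0.744. Cox8a, the common form of subunit 8, had -0.024 ± 0.28, and its relatives Cox8b and Cox8c were not analysed here.

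Complex V took the largest share of counts of the 5 complexes in every library, from 0.588% to 0.941%. Atp5b and Atp5a1, the catalytic beta and the alpha subunit of its head, had the highest CPM of all members. Atp5b stood at 1703, 2818 and 2197 CPM in the floxed controls and at 2524, 2031 and 2366 CPM in the knockouts. Atp5a1 was at 1279.8, 1846 and 1488 CPM against 1672, 1471 and 1586 CPM. Their log2 fold changes were 0.043 ± 0.26 and 0.035 ± 0.23, and the floxed controls lay on either side of the knockouts in each.

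The membrane ring of complex V is built from subunit c, which 3 genes encode with the same mature protein. Atp5g3 stood at 242, 423 and 321 CPM in the floxed controls and 379, 301 and 398 CPM in the knockouts, Atp5g1 at 246, 557 and 348 CPM against 412, 327 and 476 CPM, and Atp5g2 at 170.1, 367 and 282 CPM against 278, 212 and 271 CPM. No one of the 3 stood apart in its fold change, which was 0.13 ± 0.23, 0.077 ± 0.28 and -0.11 ± 0.26. The smallest p of the complex belonged to Atp5j, with 0.20 ± 0.22 (edgeR adjusted p = 0.75), and Atp5k had 0.17 ± 0.26.

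Per kilobase of transcript, which allows levels of different genes to be compared, the median CPM per kb was 123 for complex I, 152 for complex II, 315 for complex III, 339 for complex IV and 381 for complex V. Within a complex the members spread widely, from 43.9 for Ndufs4 to 337 for Ndufa4 in complex I and from 4.84 for Cox6b2 to 1099 for Cox6a1 in complex IV. Ndufa4 is counted with complex I here by its symbol only, since its protein is now placed in complex IV. Atp5b, at 1186 CPM per kb, was the highest of the 78 members with a length. The value of Atp5g1, 148 CPM per kb, depends on which of its transcripts of very unequal length is used.

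All members together took 1.33%, 2.27% and 1.56% of the counts of the floxed controls (1.72% ± 0.491, SD, n = 3), against 2.16%, 1.90% and 2.27% for the knockouts (2.11% ± 0.191). The groups overlapped, with floxed control 2 at the top. The ratio of means was 1.22, and 1.46 without floxed control 2. Paneth and alpha-defensin genes took 19.0% ± 6.21 of the floxed controls' counts, against 6.69% ± 1.22 for the knockouts. With those genes out of the total, the members' ratio was 1.07 (2.12% ± 0.526 against 2.26% ± 0.203).

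Members could also be compared with each other within a library, by subtracting the members' median log2 level of that library. On this scale, chosen after the data were seen, Ndufs1 and Sdha overlapped between groups. The groups did not overlap in 11 members. The knockouts were higher in 5 (Ndufa5, Ndufa8, Cox5b, Ndufb3 and Ndufb5) and lower in 6 (Ndufa4, Atp5d, Ndufa13, Atp5g2, Ndufb11 and Ndufb4c). Over all genes 1.16% were higher and 3.6% lower, but the scale takes out the members' own pattern and adds it to other genes, so the shares are not comparable and nothing is read from them. Ndufa5 was at -0.13, -0.27 and -0.12 in the floxed controls and at 0.070, 0.16 and 0.26 in the knockouts. Ndufa8 was at -0.14, -0.071 and -0.12 against 0.078, 0.075 and 0.15.

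The other genes of the pathway were read from lists of assembly factors, carriers and neighbouring processes. By edgeR 0 of the 349 genes in the 15 lists were called, with 12 at an unadjusted p under 0.05 (3.44%, against 13.7% of all genes). DESeq2 called 2 of the 349, Cpt1b and Hspd1, where it called 2.69% of all genes with an adjusted p. Among 18 assembly factors of complex I, 16 had positive values (median log2 0.18), and the smallest p was that of Ndufaf4, which takes part in building the peripheral arm. Ndufaf4 stood at 30.2, 29.1 and 21.4 CPM in the floxed controls and 35.8, 39.2 and 48.8 CPM in the knockouts (log2 0.61 ± 0.19, edgeR adjusted p = 0.20), with groups that did not overlap. The assembly factors of complex IV had 15 of 22 positive (median 0.065). Their smallest p was that of Lrpprc, which stabilises mitochondrial messenger RNA, at 94.4, 96.2 and 71.1 CPM against 108, 134 and 122 CPM (log2 0.48 ± 0.17, edgeR adjusted p = 0.257).

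Genes that keep and express mitochondrial DNA had the highest median of the lists, 0.24, with 11 of 13 positive. Tfam, which packages and transcribes that DNA, was at 40.4, 55.8 and 39.8 CPM in the floxed controls and 52.0, 64.0 and 69.1 CPM in the knockouts (log2 0.44 ± 0.19, edgeR adjusted p = 0.326), and without floxed controls 1 and 3 it had 0.20 ± 0.21. Without floxed control 2 and knockout 1 the Tfam value was 0.73 ± 0.17 (edgeR adjusted p = 0.0395). That setting has fewer libraries, and many more of all genes were called in it than in the main fit. Top1mt, the mitochondrial topoisomerase, had 0.52 ± 0.20 (edgeR adjusted p = 0.291). The mitochondrial ribosomal proteins had 70 of 78 positive (median 0.14), with floxed control 1 lowest in 73. Protein import genes had 19 of 23 positive (median 0.15), among them Timm44 of the import motor at 0.46 ± 0.18 (edgeR adjusted p = 0.293). Without floxed control 2 and knockout 1, the same setting as for Tfam, the Timm44 value was 0.71 ± 0.18 (edgeR adjusted p = 0.0497).

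Of the fuel pathways, only glycolysis had a negative median, and it lay close to that of all genes tested (-0.013, with 48.1% positive). The tricarboxylic acid cycle had 15 of 18 positive (median 0.13), with Dld, a subunit shared by the 2-oxoacid dehydrogenases, at 0.36 ± 0.16. The mobile carriers had 14 of 17 positive (median 0.14), with Pdss1 and Pdss2, the enzyme that makes the tail of ubiquinone, at 0.38 ± 0.17 and 0.43 ± 0.17. Glycolysis had 8 of 20 positive (median -0.025), with Pdk2, which switches off pyruvate dehydrogenase, at -0.53 ± 0.20 (edgeR adjusted p = 0.275). Fatty acid oxidation had 10 of 16 positive (median 0.070). In that list Cpt1b, a carnitine palmitoyltransferase best known from muscle, was at 3.23, 4.85 and 3.25 CPM against 6.15, 7.57 and 9.24 CPM (log2 1.0 ± 0.27). By edgeR its adjusted p was 0.160, and by DESeq2 it was 0.0444. Without floxed controls 1 and 3, which leaves 1 control, the value was 0.72 ± 0.34. Without floxed control 2, where many more of all genes were called, the value was 1.24 ± 0.27 (edgeR adjusted p = 0.0288).

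Among the chaperones and proteases of the mitochondrial unfolded protein response, 8 of 12 had positive values (median 0.14). Hspd1, the matrix chaperonin, was at 289, 393 and 238 CPM in the floxed controls and 417, 501 and 588 CPM in the knockouts (log2 0.71 ± 0.23). By edgeR its adjusted p was 0.214, and by DESeq2 it was 0.0372. Without floxed controls 1 and 3, which leaves 1 control, the value was 0.41 ± 0.25. Without floxed control 2, where many more of all genes were called, the value was 0.94 ± 0.21 (edgeR adjusted p = 0.0320). Hspa9, the mitochondrial Hsp70, had 0.51 ± 0.20 (edgeR adjusted p = 0.285). The 10 proliferation markers had a summed level of 1004, 1418 and 849.7 CPM in the floxed controls and 1385, 1613 and 1468 CPM in the knockouts, low in floxed controls 1 and 3 as Hspd1 was, and their part in these values was not tested.

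The regulators of respiratory genes, such as Nrf1, Gabpa and Ppargc1a, did not share the members' library pattern. Floxed control 1 was lowest in 1 of 16 regulators, and their transcripts are long, with a median of 4671.5 bases. Their median log2 fold change was 0.038, and Gabpb1 and Ppargc1b, with the smallest p-values, had 0.25 ± 0.17 and 0.27 ± 0.20. The cytoplasmic ribosomal proteins have no part in respiration, and their median transcript length was 795 bases. Floxed control 1 was lowest in 80 of 80 of them, and their median log2 fold change was -0.0061. The part of transcript length in these library patterns was not tested.

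**Figure D5:**
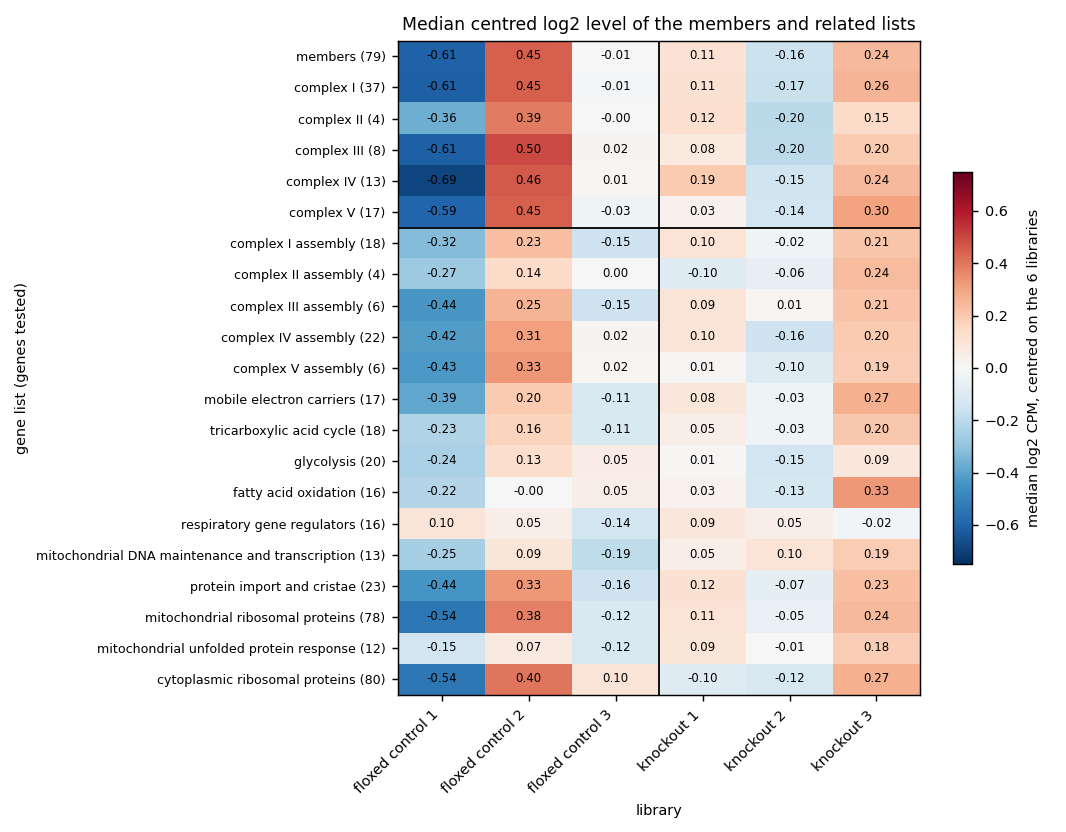
Median log2 CPM, centred on the 6 libraries (colour and printed value), of the members, of each complex and of 15 related lists (rows, number of genes tested in brackets) in each library (columns). The members run from -0.61 in floxed control 1 to 0.45 in floxed control 2; mitochondrial and cytoplasmic ribosomal proteins show a like range, and the regulators do not.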

How the data were processed

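Each value in the authors' deposited table is an estimated count of a gene's reads, left without normalisation. Of these values 31.1% to 35.2% per library are not whole (tolerance 0.001), so they were rounded before the tests, although the design had assumed whole counts. Per the labels' protocols, reads were 50 bp and single-end, from a DNBSEQ machine. The build is mm10, per the submitters' processing notes. The aligner, counter and strand use were not given in the sources used here, so reads of overlapping genes and copies may be shared: 15 of 79 members had non-whole values, 6 of them in all 6 libraries. Coordinates and promoters are from RefSeq (GRCm38.p6), where 17473 gene IDs were found. Lengths are from GENCODE M21, the median over principal RefSeq-matched transcripts.

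All genes were fitted together with edgeR 4.0.16 in R 4.3.3 (filterByExpr, TMM, robust glmQLFit, glmQLFTest, Benjamini-Hochberg adjusted p under 0.05). The biological coefficient of variation was 20.3%. Centred levels are log2 CPM with a prior count of 2. Alternatives were DESeq2 1.42.0, limma-voom (limma 3.58.1), other scalings and filters, replicate number as a block, and libraries left out. Removal of the length trend, levels relative to the members and the Ndufb4c share were chosen after the data were seen. Figures used Python 3.11.15 and matplotlib 3.10.9.

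Members and lists were chosen with earlier results of these data known. All counts and medians are over the 79 members, of which 1 is not reported here by name. Named members are core subunits, the 3 smallest p-values of each complex, alternative forms of a subunit and members next to the count threshold. Of other lists, up to 3 genes by smallest p were named, some left out after their values were seen. Ndufb4, Ndufs4, Uqcr11, Sdhd and the members named for their level relative to others fall outside that rule.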

Additional observations from a re-analysis of the deposited data

How the results depend on the processing

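The count of members called was 0 under every setting that kept more than 1 library per group. In the main fit 2 of 12943 genes tested were called, so the count of 0 says little about the members there. Many more genes were called without floxed control 2 (955 of 13247 genes tested) and without floxed control 2 and knockout 1 (920 of all genes). The members' median log2 fold change ran from -0.12 to 0.36 with 1 library left out. It was -0.31 without floxed controls 1 and 3, which leaves 1 control whose spread is assumed to be like that of the knockouts, and 0.33 without floxed control 2 and knockout 1. The ratio of the members' share of counts ran from 1.10 to 1.46 with 1 library left out, and was 0.928 and 1.44 in those settings. With replicate number as a block the median was 0.12, and 0 members and 39 of 12943 genes tested were called. Deviations of like-numbered libraries from their group means correlated at -0.18, -0.27 and 0.068 over 12943 genes. Those of unlike-numbered libraries ran from -0.14 to 0.38. With 3 libraries per group these values cannot decide whether the numbers pair the samples.

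Signs of single members turned as follows, and the cause was not tested. Without floxed controls 1 and 3 the log2 fold change was -0.21 for Ndufv1, -0.083 for Ndufs3, -0.25 for Uqcrfs1, -0.37 for Cox4i1, -0.086 for Cox5a, -0.17 for Atp5a1, -0.23 for Atp5b, -0.080 for Uqcrc2, -0.18 for Uqcrb, -0.15 for Cox5b, -0.14 for Cox7b, -0.090 for Atp5j, -0.25 for Atp5k, -0.17 for Atp5g3, -0.42 for Cox6a1, -0.29 for Cox6b1, -0.12 for Cox7a1, -0.32 for Cox7a2 and -0.40 for Atp5g1. Without floxed control 2 and knockout 1 it was 0.15 for Sdhb, 0.20 for Uqcrc1, 0.17 for Sdhc, 0.014 for Cox7a2l, 0.20 for Cox8a, 0.25 for Ndufa4 and 0.10 for Atp5g2. With DESeq2 size factors it was 0.0085 for Ndufa4. With TMM scaling without the 50 most abundant genes it was 0.010 for Ndufa4. With no filter beyond 1 count it was 0.013 for Ndufa4. By DESeq2 it was 0.0086 for Ndufa4. By limma-voom it was 0.038 for Uqcrc1, 0.051 for Cox8a and 0.053 for Ndufa4. With the replicate block it was 0.027 for Uqcrc1, 0.037 for Cox8a and 0.044 for Ndufa4. With the length trend removed it was 0.013 for Cox8a and 0.012 for Ndufa4. With 1 library left out it ran from -0.065 to 0.32 for Ndufv1, -0.081 to 0.25 for Uqcrfs1, -0.17 to 0.41 for Cox4i1, -0.050 to 0.20 for Atp5a1, -0.089 to 0.25 for Atp5b, -0.048 to 0.50 for Atp5k, -0.018 to 0.36 for Atp5g3, -0.18 to 0.41 for Cox6a1, -0.12 to 0.44 for Cox6b1 and -0.29 to 0.25 for Cox7a1. It likewise ran from -0.085 to 0.55 for Cox7a2, -0.13 to 0.46 for Atp5g1, -0.33 to 0.23 for Sdhb, -0.21 to 0.26 for Uqcrc1, -0.20 to 0.16 for Sdhc, -0.24 to 0.30 for Cox8a, -0.20 to 0.26 for Ndufa4, -0.33 to 0.17 for Atp5g2, -0.29 to 0.013 for Cox7a2l and -0.044 to 0.60 for Cox6b2.
The depth limits Cox6b2 and the symbols below the threshold most.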
